A study of Mus musculus with 7 samples.

Results

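The ephrin, Slit-Robo and netrin guidance genes are mouse genes taken from the deposited count table: the rows with any read whose Entrez identifier carries a symbol of an ephrin (Efna, Efnb), an Eph receptor (Epha, Ephb), a Slit, a Robo, a netrin, a netrin-G or an Unc5 receptor, or is Dcc or Neo1. Of 41 rows with such a symbol, 39 had any read and are the genes described here, among 20196 genes of the table with any read, and 33 had enough reads to be tested. These families steer growing axons and migrating neurons. Ephrins are cell-surface ligands, anchored by a lipid tail in the A class and spanning the membrane in the B class, and Eph receptors are tyrosine kinases that mostly repel on contact. Slits are secreted proteins that repel axons carrying Robo receptors. Netrin-1 attracts through Dcc and its relative neogenin (Neo1) and repels through Unc5 receptors, whereas netrin-G proteins are membrane-anchored and act at synapses and along axons.

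Transcript levels were measured by polyA RNA-seq in cortical neurons of male C57BL/6 mouse embryos at E16.5, in 4 KAT7 mutant and 3 wild type libraries. KAT7 is a histone acetyltransferase, and the study concerns its part in histone acetylation and gene activation. The labels name the genotype as KAT7 mutant; the sources used here give neither the allele, nor any Cre driver, nor how the neurons were obtained. The design text gives the samples as separate mice, so p-values set the genotype difference against the spread between animals. The sample titles give no litter.

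Libraries held 8272487 to 8813060 counts. Kat7 had 3, 4, 3 and 10 counts in KAT7 mutant replicates 1 to 4, against 869, 848 and 854 in wild type replicates 1 to 3, so the labels held in all 7 libraries. All 12 markers of cortical projection neurons were detected, with a summed level of 9112 to 9699 CPM (read counts scaled to library size) in KAT7 mutant and 10071 to 10819 CPM in wild type libraries. Of these markers 3 rose (Tbr1 by 0.51, Bcl11b by 0.19 and Neurod2 by 0.20 on the log2 scale), 6 fell and 3 were not called. Stmn2, with the largest fall, averaged 328 CPM in KAT7 mutant and 1334 CPM in wild type. This fall of a single gene was close in size to that of the summed level. Radial glia markers summed to 476 to 533 CPM in KAT7 mutant and 752 to 790 CPM in wild type libraries, with 7 of 10 tested members lower and 0 higher, and markers of GABAergic and ventral telencephalic cells to 321 to 455 and 238 to 345 CPM, with 6 of 10 tested members higher and 0 lower. Microglia markers summed to 29.2 to 39.0 CPM in KAT7 mutant and 18.9 to 21.9 CPM in wild type libraries (4 of 7 tested higher, 0 lower), and oligodendrocyte lineage markers to 38.3 to 56.7 and 34.2 to 39.9 CPM (4 of 8 higher, 1 lower). The part of these cell types in the results on guidance genes was not tested. In bulk samples, fewer cells of a type and less RNA per cell cannot be told apart.

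Guidance genes moved in both directions between the genotypes. Of 33 tested genes, 6 rose, 13 fell and 14 were not called in KAT7 mutant neurons at an adjusted p under 0.05 in edgeR's quasi-likelihood test. The 19 called genes are 57.6% of those tested, beside 28.9% of all 13681 tested genes (13.1% higher and 15.8% lower). Among genes with a mean of at least 10 CPM, 12 of 23 guidance genes were called, beside 30.6% of all tested genes at that level. The share called also differed with gene span, in classes described below. Of all tested genes, 25.7% were called under 50 kb, 36.3% at 50 to 300 kb and 53% at 300 kb or more. Guidance genes, with 11 tested in each class, were called at 36.4%, 63.6% and 72.7%. The median log2 fold change of the 33 genes was -0.10, or -0.05 without wild type replicate 1, beside 0.00 over all tested genes. All 19 called genes, and none of the 14 others, had KAT7 mutant libraries that did not overlap with wild type libraries, a pattern that 35.3% of all tested genes showed. Receptors fell more often than they rose, with 10 lower and 2 higher of 20 tested, whereas ligands and netrin-G2 had 3 lower and 4 higher of 13 tested. A difference between these splits was not tested. Most changes were modest. Epha6, Epha8 and Ntn1, 3 of the 33 tested guidance genes, were called with a change of 2-fold or more. Of all 13681 tested genes, 4.88% were called with a change of that size.

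**Figure D1:**
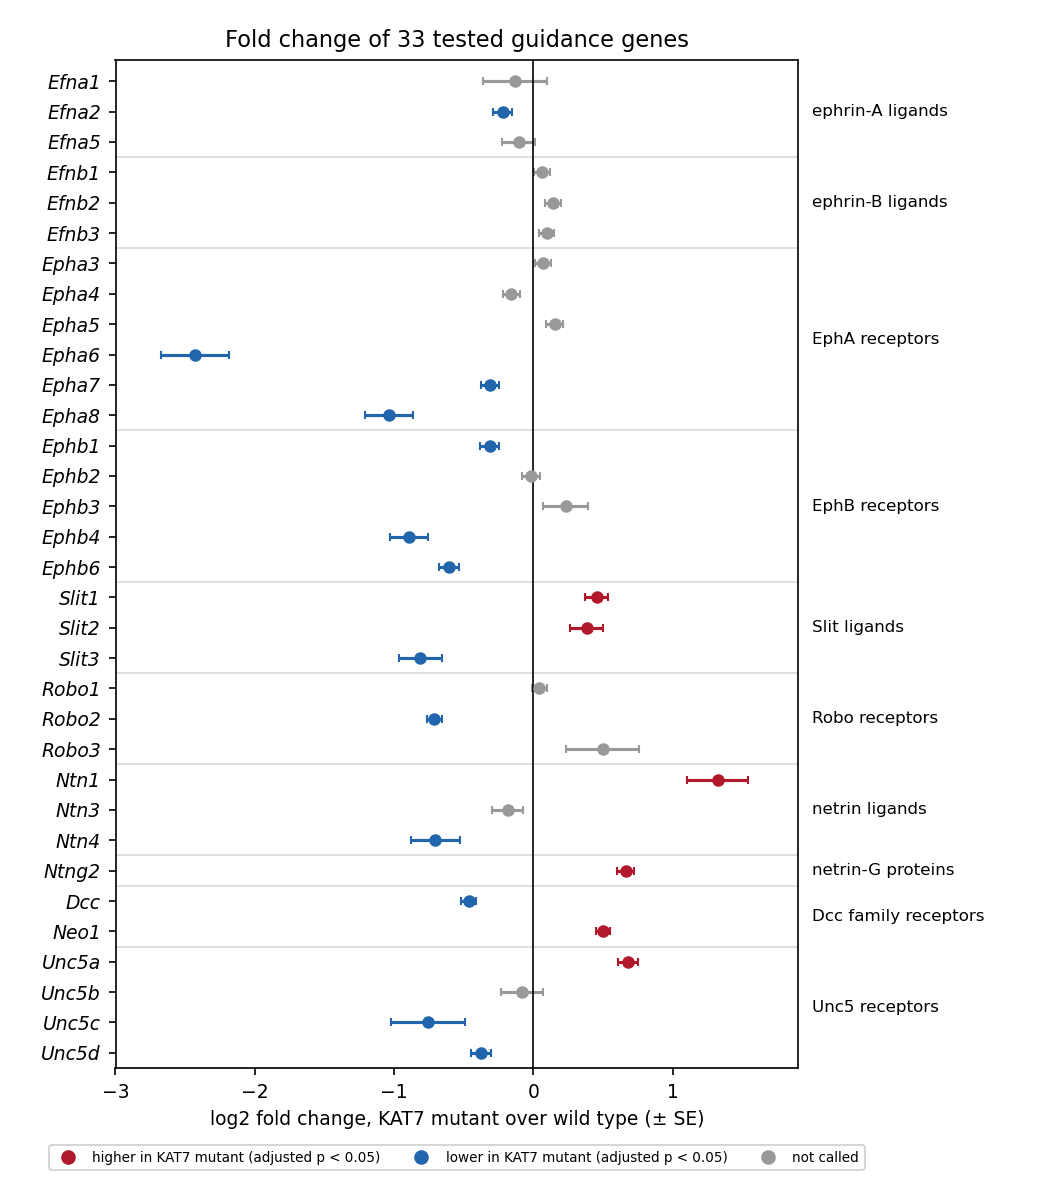
Log2 fold change of KAT7 mutant over wild type (x axis, bars are ± SE) for the 33 tested guidance genes (y axis), grouped by family. Called genes run from Epha6 at -2.43 to Ntn1 at 1.32, and all 3 ephrin-B genes lie close to 0 and are not called.

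The promoters of the genes on which the comparison turns are shown first, as the 250 bases before the RefSeq transcription start in assembly GRCm38.p6, in the direction of transcription. Epha6 had the largest fall, Robo2 the largest fall among abundant genes, Robo1 is the uncalled neighbour of Robo2, and Neo1, Unc5a and Ntng2 are the rises with the smallest adjusted p. Capitals mark the GC box, searched as GGGCGG and its reverse complement CCGCCC on both strands, with overlapping matches joined.
Epha6, chr16:60605532-60605781, minus strand: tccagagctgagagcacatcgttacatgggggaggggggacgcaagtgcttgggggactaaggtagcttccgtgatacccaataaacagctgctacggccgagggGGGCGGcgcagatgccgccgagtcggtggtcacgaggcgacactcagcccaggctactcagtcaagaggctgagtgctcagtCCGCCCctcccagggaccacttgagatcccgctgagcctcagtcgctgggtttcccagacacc
Robo2, chr16:75447294-75447543, minus strand: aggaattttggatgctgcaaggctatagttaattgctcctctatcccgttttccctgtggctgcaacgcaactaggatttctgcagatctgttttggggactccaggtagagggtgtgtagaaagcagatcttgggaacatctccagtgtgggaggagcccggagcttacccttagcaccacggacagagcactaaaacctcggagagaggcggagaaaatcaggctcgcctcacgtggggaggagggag
Robo1, chr16:72662899-72663148, plus strand: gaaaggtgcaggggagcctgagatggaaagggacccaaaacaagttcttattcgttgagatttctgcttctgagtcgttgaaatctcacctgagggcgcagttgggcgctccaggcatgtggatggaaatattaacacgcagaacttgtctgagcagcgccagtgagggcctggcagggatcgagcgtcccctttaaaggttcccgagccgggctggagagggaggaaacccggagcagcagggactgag
Neo1, chr9:59036442-59036691, minus strand: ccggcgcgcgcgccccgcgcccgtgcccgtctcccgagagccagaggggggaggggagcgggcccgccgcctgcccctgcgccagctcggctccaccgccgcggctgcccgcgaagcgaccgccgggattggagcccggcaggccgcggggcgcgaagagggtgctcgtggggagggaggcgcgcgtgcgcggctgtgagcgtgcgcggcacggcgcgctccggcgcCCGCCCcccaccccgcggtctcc
Unc5a, chr13:54949161-54949410, plus strand: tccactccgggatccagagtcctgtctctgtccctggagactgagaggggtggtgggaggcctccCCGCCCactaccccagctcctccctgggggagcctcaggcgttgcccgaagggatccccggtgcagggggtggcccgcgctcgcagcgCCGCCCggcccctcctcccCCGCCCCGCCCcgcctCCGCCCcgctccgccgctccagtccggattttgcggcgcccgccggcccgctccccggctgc
Ntng2, chr2:29248100-29248349, minus strand: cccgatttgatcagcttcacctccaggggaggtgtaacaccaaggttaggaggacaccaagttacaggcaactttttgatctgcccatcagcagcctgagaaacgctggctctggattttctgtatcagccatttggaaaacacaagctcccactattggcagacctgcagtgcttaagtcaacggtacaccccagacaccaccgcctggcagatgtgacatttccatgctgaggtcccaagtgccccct
The 6 promoters differ widely in composition. The ratio of observed to expected CpG dinucleotides was 1.04 for Neo1 and 0.703 for Unc5a, but 0.237 for Ntng2. The windows of these rising genes were thus not all CpG-rich. The ratio was 0.611 for Epha6, 0.466 for Robo2 and 0.592 for Robo1. Robo2 has 3 windows, of which the one farthest upstream is shown, and none of them nor the Robo1 window held a GC box, whereas Unc5a held 5.

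Windows were found for 36 of the 41 genes, 41 windows in all, since some genes have several starts. Dcc, Efnb3, Ntn1, Slit1 and Unc5d had none, so 2 of the genes that rose, Ntn1 and Slit1, are missing. The median CpG ratio was 0.775 in 4 windows of genes that rose, 0.732 in 14 windows of genes that fell, 0.653 in 14 windows of uncalled genes and 0.508 in 9 windows of genes that were not tested or had no count. Over all 32841 RefSeq windows, which include genes that code for no protein, it was 0.374. A GC box was present in 28 of 41 guidance windows (68.3%) and in 32.7% of all windows, a CCAAT box (CCAAT or ATTGG) in 36.6% and 33.9%, and a TATA box (TATAAA or TTTATA) in 4.88% and 12.4%. Genes that rose and genes that fell held the GC box in 3 of 4 and 9 of 14 windows. These are letter matches and not sites of a factor.

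Ephrin ligands changed little. Of the A class, Efna2 (Entrez 13637) fell to 50.9 ± 1.37 CPM (SD, n = 4) in KAT7 mutant against 59.3 ± 3.72 CPM (SD, n = 3) in wild type neurons, at -0.22 ± 0.07 (SE) on the log2 fold change scale (edgeR adjusted p = 0.0143). The fall missed the threshold in DESeq2 (adjusted p = 0.0512) and without wild type replicate 2 (0.0602) or 3 (0.0786), and its alternatives spanned 0.00749 to 0.0786. Efna5 averaged 15.9 CPM in KAT7 mutant and 17.1 CPM in wild type, and Efna1 2.81 and 3.08 CPM, and neither was called. Of the B class, Efnb2 had the highest length-scaled level of all guidance genes in both genotypes. It had 469, 498, 540 and 497 CPM in KAT7 mutant replicates 1 to 4 and 415, 461 and 489 CPM in wild type replicates 1 to 3, so the groups overlapped. Its log2 fold change was 0.14 ± 0.06 (SE), with an edgeR adjusted p of 0.0805. Efnb2 was called without KAT7 mutant replicate 1 (0.0362) or wild type replicate 3 (0.0305), and with no count filter (0.0485). Efnb1 and Efnb3 stood at 0.06 ± 0.06 and 0.10 ± 0.05 on the log2 fold change scale, without a call.

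Among EphA receptors the falls were concentrated in genes of low or middle abundance. Epha6 (Entrez 13840) had 0.701, 1.74, 1.06 and 1.34 CPM in KAT7 mutant replicates 1 to 4, against 7.48, 6.75 and 5.54 CPM in wild type replicates 1 to 3. Every KAT7 mutant library lay far below every wild type library. The log2 fold change was -2.43 ± 0.24 (SE), with an edgeR adjusted p of 2.57e-07, from 41 counts in all KAT7 mutant libraries and 171 in all wild type libraries. Epha8 (Entrez 13842) had 5.02, 4.06, 3.43 and 4.03 CPM in KAT7 mutant libraries and 9.97, 8.01 and 7.58 CPM in wild type libraries, a log2 fold change of -1.04 ± 0.17 (SE, edgeR adjusted p = 0.000106). The level in KAT7 mutant libraries was thus 48.7% of that in wild type libraries. Epha7 (Entrez 13841), a receptor with a graded pattern across the cortex, fell to 93.0 ± 9.04 CPM (SD, n = 4) in KAT7 mutant against 115 ± 1.74 CPM (SD, n = 3) in wild type neurons, by 0.31 ± 0.07 (SE) on the log2 scale (edgeR adjusted p = 0.0013).

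The 3 most abundant EphA receptors were not called. Epha5 averaged 589 ± 48.5 CPM (SD, n = 4) in KAT7 mutant and 529 ± 28.1 CPM (SD, n = 3) in wild type, at 0.15 ± 0.06 on the log2 fold change scale with an edgeR adjusted p of 0.0586. Epha5 was called at 0.20 without KAT7 mutant replicate 1 (0.00559) and at 0.15 with no count filter (0.0223). Epha4, which binds ephrins of both classes, averaged 381 ± 35.5 CPM in KAT7 mutant and 424 ± 18.5 CPM in wild type, at -0.16 ± 0.06 with an edgeR adjusted p of 0.0611. It was called without KAT7 mutant replicate 2 (0.0239) or 4 (0.0464) or wild type replicate 1 (0.0495), and with library size only (0.0325), upper-quartile factors (0.0478) or no count filter (0.0137). Over the 15 alternatives its adjusted p spanned 0.0137 to 0.221. Epha3 stood at 0.07 ± 0.06. The sum of all EphA genes, in RPKM (CPM divided by gene length in kilobases), was 173 to 205 in KAT7 mutant and 190 to 205 in wild type libraries, an overlap.

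Of EphB receptors, 3 of 5 fell and none was called higher. Ephb4 (Entrez 13846), known as a receptor of venous endothelium that binds ephrin-B2, had 5.49, 5.91, 6.38 and 7.34 CPM in KAT7 mutant libraries and 10.8, 11.7 and 12.4 CPM in wild type libraries. Its log2 fold change was -0.89 ± 0.14 (SE), with an edgeR adjusted p of 5.86e-05. Endothelial markers, with 2 of 6 tested genes lower and 0 higher, summed to 11.1 to 14.2 CPM in KAT7 mutant and 15.4 to 18.2 CPM in wild type libraries. The 2 lower genes were Ramp2 and Slco1c1. The other 4 tested genes were not called. They stood at 0.97 (Pecam1), 0.10 (Kdr), 0.0019 (Esam) and -0.14 (Flt1) on the log2 fold change scale. Cldn5, Cdh5, Tek and Tie1, which define endothelial cells, were too low to test, and Tie1 had no count. The part of endothelial RNA in the Ephb4 result was not tested. Ephb6 (Entrez 13848), whose kinase is inactive, had 37.3, 39.5, 35.0 and 40.7 CPM in KAT7 mutant and 57.5, 61.1 and 55.2 CPM in wild type libraries, at -0.60 ± 0.07 (SE, edgeR adjusted p = 2e-06). Ephb1 (Entrez 270190) fell by 0.31 ± 0.07 on the log2 scale to 110.1 ± 11.2 CPM (SD, n = 4) in KAT7 mutant against 137 ± 9.92 CPM (SD, n = 3) in wild type (edgeR adjusted p = 0.00189). Ephb2, the most abundant of the class, stood at -0.02 ± 0.06 and Ephb3 at 0.23 ± 0.16, with no call. In wild type replicate 3 Ephb3 was at 6.22 CPM, against 11.3 and 10.9 CPM in the other wild type libraries, and without it the log2 fold change was 0.0019 (edgeR adjusted p = 0.994). Ephb2 and Epha8 lie near each other on chromosome 4, with only the 3 complement genes C1qa, C1qb and C1qc between them among protein-coding genes.

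**Figure D2:**
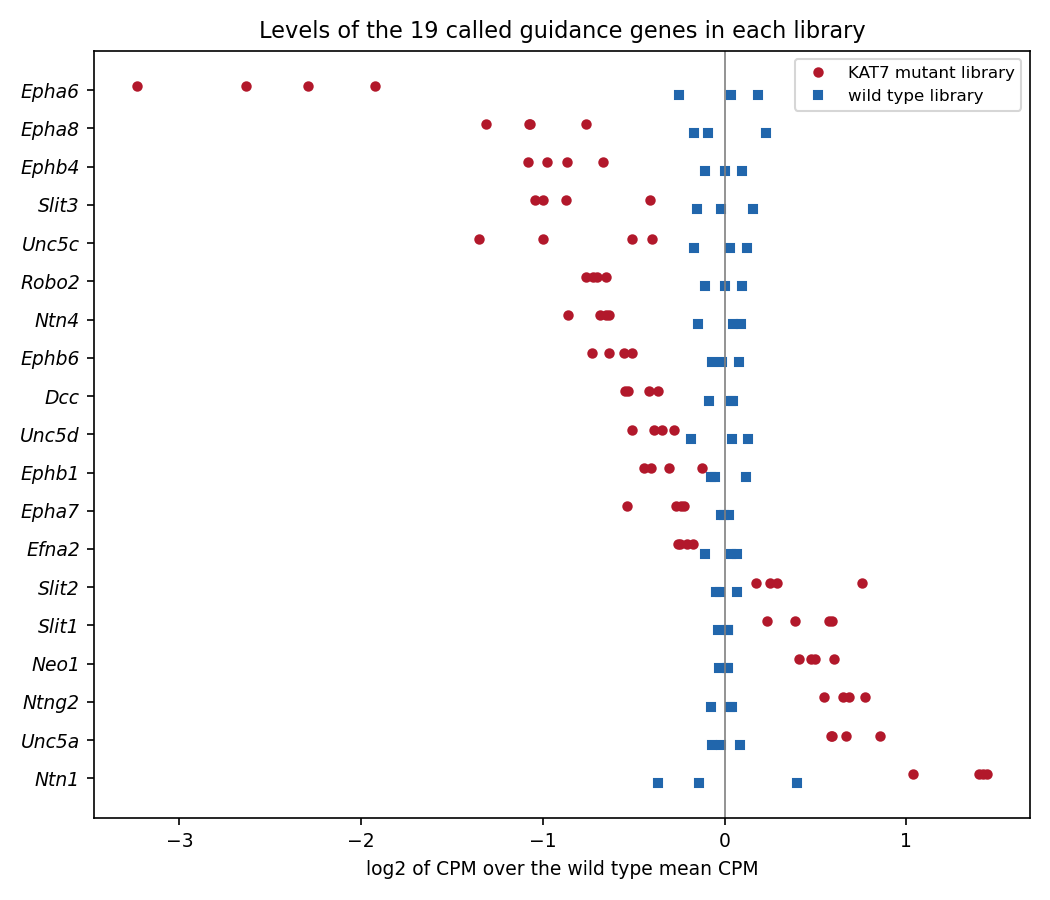
Level of each of the 19 called guidance genes in every library, as log2 of CPM over the mean of the wild type libraries (x axis), with circles for the 4 KAT7 mutant and squares for the 3 wild type libraries. In no gene do the circles and squares overlap, and the circles of Epha6 and Unc5c are the most spread among genes that fell.

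All 3 Slit genes were called, in different directions. Slit1 (Entrez 20562), the most abundant Slit here, had 71.4, 61.9, 55.6 and 70.5 CPM in KAT7 mutant libraries and 46.1, 47.9 and 48.0 CPM in wild type libraries, a rise of 0.45 ± 0.08 (SE) on the log2 scale with an edgeR adjusted p of 0.000223. Slit2 (Entrez 20563) had 27.2, 25.9, 28.0 and 38.6 CPM in KAT7 mutant and 22.2, 24.0 and 22.5 CPM in wild type libraries, at 0.38 ± 0.12 (SE, edgeR adjusted p = 0.0182). KAT7 mutant replicate 4 was the highest library, and without it the log2 fold change was 0.24 with no call (edgeR adjusted p = 0.0724). Slit2 also lost its call without wild type replicate 1 (0.0571) or 3 (0.0587), and its alternatives spanned 0.00124 to 0.0918. Slit3 (Entrez 20564) had 5.84, 5.68, 6.38 and 8.80 CPM in KAT7 mutant and 11.5, 13.0 and 10.5 CPM in wild type libraries, a fall of 0.81 ± 0.15 (SE) on the log2 scale with an edgeR adjusted p of 0.000483. Beside Slit3, markers of pericytes and meninges summed to 12.03 to 15.9 CPM in KAT7 mutant and 17.2 to 19.6 CPM in wild type libraries, with 1 of 4 tested genes lower and 0 higher, all 10 detected and 6 too low to test. Their part in the result was not tested.

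Of the Robo receptors, Robo2 (Entrez 268902) fell and its neighbour Robo1 was not called. Robo2 had 219, 223, 230.1 and 213 CPM in KAT7 mutant libraries and 336, 388 and 363 CPM in wild type libraries. The KAT7 mutant libraries were tightly grouped below all wild type libraries, at 61.1% of the wild type level. The difference was -0.71 ± 0.05 (SE) on the log2 scale, and its edgeR adjusted p of 3.33e-09 was the smallest among guidance genes. Robo1 had 537, 552, 518 and 532 CPM in KAT7 mutant and 470.1, 527 and 559 CPM in wild type libraries, at 0.04 ± 0.05 (SE, edgeR adjusted p = 0.588). The genes are adjacent on chromosome 16, with 0 protein-coding genes between them. Robo3, which in commissural neurons dampens the response to Slit before the midline, averaged 2.73 ± 0.354 CPM (SD, n = 4) in KAT7 mutant and 1.92 ± 0.599 CPM (SD, n = 3) in wild type, at 0.50 ± 0.26 (SE, edgeR adjusted p = 0.165). Robo4, an endothelial receptor, had 0 counts in KAT7 mutant and 2 in wild type libraries.

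Netrin genes were low, and both called ones were on opposite sides. Ntn1 (Entrez 18208), the secreted attractant, had 5.84, 4.41, 5.67 and 5.75 CPM in KAT7 mutant libraries and 1.66, 1.95 and 2.83 CPM in wild type libraries. It had the largest rise among guidance genes, 1.32 ± 0.22 (SE) on the log2 scale with an edgeR adjusted p of 0.000122, from 183 and 56 counts in all. Ntn1 is strongly transcribed in the ventral telencephalon, whose listed markers also rose in part (6 of 10 tested, as given above). The summed markers were at 455, 321, 419 and 355 CPM in KAT7 mutant replicates 1 to 4 and at 345, 272 and 238 CPM in wild type replicates 1 to 3. Among KAT7 mutant libraries, replicate 2 was lowest in both Ntn1 and the markers, whereas wild type replicate 1 was lowest in Ntn1 and highest in the markers of its genotype. Markers listed for the striatum summed to 67.2 to 81.8 CPM in KAT7 mutant and 67.1 to 84.2 CPM in wild type libraries, an overlap. Of their 7 tested genes, 3 were higher and 2 lower. The part of ventral telencephalic cells in the Ntn1 rise was not tested. Ntn4 (Entrez 57764), a netrin of basement membranes that binds laminin, had 3.62, 3.13, 3.54 and 3.67 CPM in KAT7 mutant and 6.06, 5.15 and 5.88 CPM in wild type libraries, at -0.70 ± 0.17 (SE, edgeR adjusted p = 0.00437). Ntn3 stood at -0.18 ± 0.11 with no call; its annotated exons overlap those of Tbc1d24 on the same strand.

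Netrin-G2 (Ntng2, Entrez 171171), a membrane-anchored protein of cortical neurons, rose. It had 132, 145, 142 and 154 CPM in KAT7 mutant libraries and 85.7, 92.9 and 92.1 CPM in wild type libraries, at 0.66 ± 0.06 (SE) on the log2 fold change scale with an edgeR adjusted p of 6.11e-08. Exons of Ntng2 overlap those of the non-coding transcript 6530402F18Rik on the same strand in the GENCODE M21 annotation. That row averaged 120.5 ± 11.7 CPM (SD, n = 4) in KAT7 mutant and 77.6 ± 7.87 CPM (SD, n = 3) in wild type, at 0.63 ± 0.08 (SE, edgeR adjusted p = 2.88e-06). How reads were divided between these rows is not given in the sources used here. Ntng1, expressed mainly by thalamic neurons, and Ntn5 had no count in any library, which allows up to 3 counts or 0.339 to 0.367 CPM per library, for counting error only.

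The receptors for netrin-1 split within each family. Dcc (Entrez 13176), which mediates attraction, had 209, 234, 206 and 226 CPM in KAT7 mutant and 284, 310 and 311 CPM in wild type libraries, a fall of 0.46 ± 0.05 (SE) on the log2 scale (edgeR adjusted p = 1.98e-06). Neo1 (Entrez 18007), a Dcc relative that also binds repulsive guidance molecules (Rgm), had 691, 724, 736 and 791 CPM in KAT7 mutant and 509.5, 527 and 526 CPM in wild type libraries, a rise of 0.50 ± 0.05 (SE) on the same scale (edgeR adjusted p = 2.57e-07). For both genes the lowest and the highest libraries of the genotypes were well apart.

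Of the repulsive Unc5 receptors, Unc5a (Entrez 107448) rose, with 98.6, 99.1, 105 and 119 CPM in KAT7 mutant and 69.8, 62.8 and 64.8 CPM in wild type libraries, at 0.68 ± 0.07 (SE, edgeR adjusted p = 3.53e-07). Exons of Hk3 overlap Unc5a on the opposite strand, and the Hk3 row itself averaged 1.55 CPM in KAT7 mutant and 1.42 CPM in wild type. Unc5d (Entrez 210801), a receptor of young upper layer neurons, had 65.4, 70.5, 60.0 and 67.4 CPM in KAT7 mutant and 75.3, 93.4 and 87.8 CPM in wild type libraries, a fall of 0.38 ± 0.07 (SE) on the log2 scale (edgeR adjusted p = 0.000556). Unc5c (Entrez 22253) had 1.40, 1.97, 2.13 and 1.10 CPM in KAT7 mutant and 2.49, 2.86 and 3.05 CPM in wild type libraries, at -0.76 ± 0.26 (SE, edgeR adjusted p = 0.037). This call rests on 56 and 73 counts and was lost in DESeq2 (0.164) and without KAT7 mutant replicate 1 (0.0733) or 4 (0.105) or wild type replicate 2 (0.0965) or 3 (0.118), and its alternatives spanned 0.0243 to 0.164. Unc5b stood at -0.08 ± 0.15 with no call.

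Ratios within a family do not depend on the scaling of libraries and show the unequal shifts in each mouse. These ratios of RPKM were chosen after the values were seen and carry no test; with 4 against 3 libraries the smallest 2-sided exact permutation p would be 0.0571. Neo1 over Dcc was 4.63, 4.32, 4.98 and 4.89 in KAT7 mutant replicates 1 to 4 and 2.50, 2.38 and 2.36 in wild type replicates 1 to 3. Every KAT7 mutant library had a higher ratio than every wild type library. Robo1 over Robo2 was 2.60, 2.63, 2.39 and 2.66 in KAT7 mutant and 1.49, 1.45 and 1.64 in wild type libraries. Slit1 over Slit3 was 9.50 ± 1.85 (SD, n = 4) in KAT7 mutant and 3.89 ± 0.426 (SD, n = 3) in wild type libraries, and Unc5a over Unc5d 3.73 ± 0.413 and 1.81 ± 0.307. The Eph receptor ratios moved less: Epha5 over Epha7 was 6.49 ± 0.267 in KAT7 mutant and 4.69 ± 0.208 in wild type, and Ephb2 over Ephb1 1.84 ± 0.0874 and 1.495 ± 0.0410. None of these 6 ratios overlapped between genotypes. In each pair the second gene was called lower and the first was called higher or not called. Higher ratios in KAT7 mutant libraries thus follow from the choice of pairs.

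**Figure D3:**
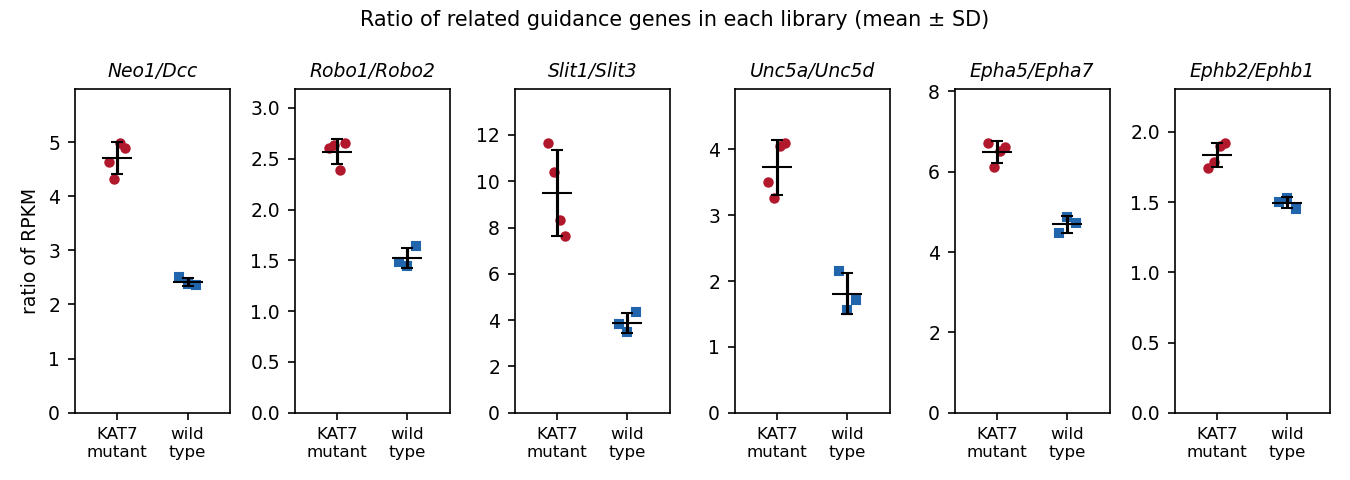
Ratio of RPKM of 6 pairs of related guidance genes (y axis, starting at 0) in each KAT7 mutant (left, 4 circles) and wild type (right, 3 squares) library, with mean ± SD as black bars. Neo1 over Dcc lies between 4.32 and 4.98 in KAT7 mutant and between 2.36 and 2.50 in wild type libraries.

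Levels can be set against each other only per length, with the deposited gene length. In wild type neurons the order of RPKM was led by Efnb2 at 105 ± 8.69 (SD, n = 3), then Neo1 at 70.5 ± 1.31, Robo1 at 68.5 ± 5.94, Epha5 at 68.0 ± 3.61 and Epha4 at 67.1 ± 2.92. From Neo1 to Epha4 each gene's range overlapped with that of the next, so their order is not resolved. In KAT7 mutant neurons the order was Efnb2 at 116 ± 6.71 (SD, n = 4), Neo1 at 99.6 ± 5.65, Ntng2 at 80.8 ± 5.22, Epha5 at 75.6 ± 6.22 and Robo1 at 70.7 ± 1.82. Ntng2 stood at place 3 in KAT7 mutant and place 6 in wild type, and Robo2 at place 11 in KAT7 mutant and place 7 in wild type. The Ntng2 places rest on a deposited length of 1770 bases and on a row whose exons overlap those of 6530402F18Rik. Place 3 of Ntng2 is not resolved, since its KAT7 mutant range (74.4 to 87.0 RPKM) overlapped with that of Epha5 (67.1 to 80.9 RPKM). Nor are the places of Robo2. Its range overlapped with that of Epha3 in wild type (41.8 to 48.2 and 42.3 to 45.0 RPKM). In KAT7 mutant it overlapped with that of Unc5a (26.5 to 28.6 and 24.8 to 29.9 RPKM). In wild type, 24 of the 32 pairs of neighbours in the order had overlapping ranges. At the low end of the tested genes, Ntn1 averaged 0.944 RPKM in KAT7 mutant and 0.374 RPKM in wild type, and Unc5c 0.177 and 0.302 RPKM. The 6 genes with counts that were not tested, Efna3, Efna4, Epha1, Epha2, Epha10 and Robo4, had at most 17 counts over all KAT7 mutant and at most 13 over all wild type libraries.

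**Figure D4:**
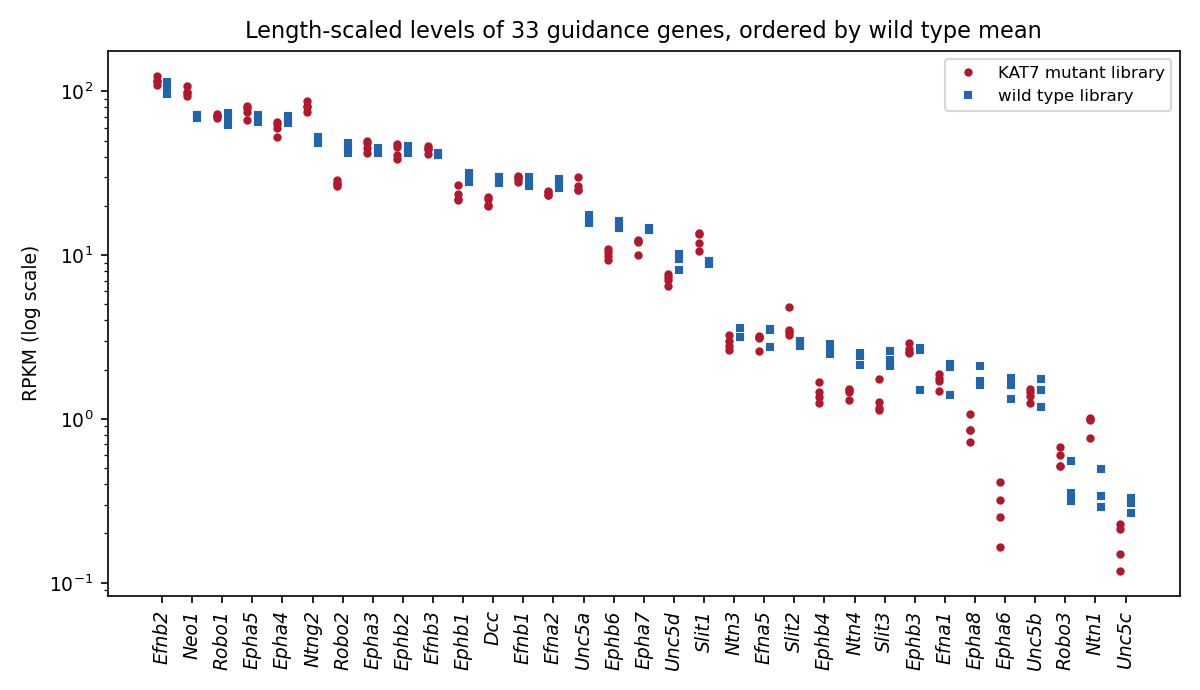
RPKM on a log axis of the 33 tested guidance genes in each KAT7 mutant (circles, left of each pair) and wild type (squares, right) library, ordered by the wild type mean. Efnb2 is highest in both genotypes, and Robo2 is at 27.5 RPKM in KAT7 mutant and 45.0 RPKM in wild type.

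Within the Dcc, Unc5, Slit and netrin families called genes moved in opposite directions, so their shifts partly cancelled in the family sum. The summed RPKM of the Dcc family was 121 ± 6.31 (SD, n = 4) in KAT7 mutant and 99.7 ± 2.78 (SD, n = 3) in wild type, that of the Unc5 family 35.2 ± 2.36 and 27.6 ± 0.170, and that of the Slits 17.5 ± 2.10 and 14.2 ± 0.468, with higher KAT7 mutant libraries and no overlap. The Robo sum was 98.7 ± 1.65 in KAT7 mutant and 114 ± 8.40 in wild type, the EphB sum 81.1 ± 6.98 and 93.4 ± 3.32, and the ephrin-A sum 28.8 ± 0.581 and 33.1 ± 1.32, with lower KAT7 mutant libraries and no overlap. Sums of ephrin-B, EphA and netrin genes overlapped. No test was run on these sums.

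The tested guidance genes also differ in gene span, the distance from the first to the last base of the gene in GENCODE M21 on assembly GRCm38. The span classes were chosen after the fold changes were seen. Of 11 guidance genes spanning 300 kb or more, 7 fell, 1 rose and 3 were not called; the falling ones were Dcc (1100 kb), Epha6 (952 kb), Slit3 (587 kb), Unc5d (573 kb), Robo2 (520 kb), Ephb1 (433 kb) and Unc5c (370 kb). Robo1, at 738 kb, was among those not called. The Robo2 span comes from another gene model than its promoter windows. The RefSeq windows of Robo2 lie between positions 74411826 and 75447543 on chromosome 16, farther apart than 520 kb. These spans thus do not show which of Robo1 and Robo2 is longer. Of 11 genes between 50 and 300 kb, 5 rose and 2 fell, and of 11 under 50 kb, 0 rose and 4 fell. Over all tested genes, 31.7% of the 470 spanning 300 kb or more fell and 21.3% rose, beside 14.8% and 21.5% of those between 50 and 300 kb and 15.9% and 9.89% of those under 50 kb. Across the whole table, too, the longest class had the highest share of falls; no test was run on these shares.

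**Figure D5:**
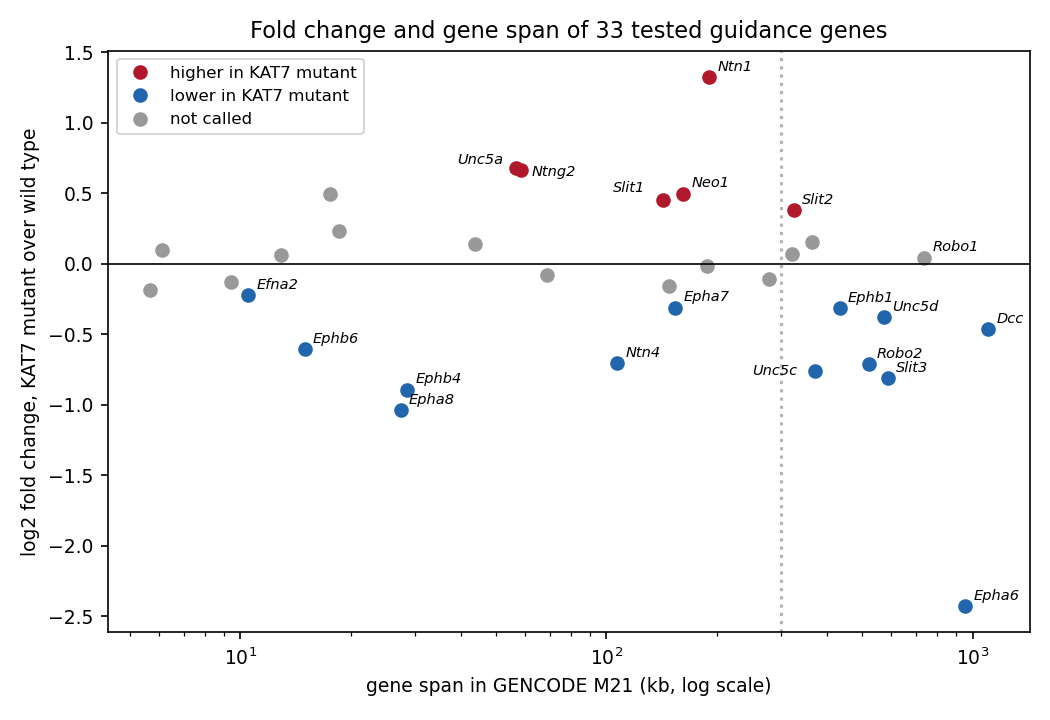
Log2 fold change of KAT7 mutant over wild type (y axis) against gene span in kb on a log axis for the 33 tested guidance genes, with called genes and Robo1 named and a dotted line at 300 kb. Right of the line 7 genes fell, Slit2 rose and 3 genes, Robo1 among them, were not called. Robo2 is drawn at its GENCODE M21 span of 520 kb, which is shorter than the distance between its RefSeq windows.

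Other genes of these pathways also moved both ways. They come from lists drawn up with earlier results of these data known, so the shares called carry no test. Of 22 listed ligands and coreceptors that act with these receptors, 19 were tested, 4 rose, 7 fell and 8 were not called (57.9%, beside the 28.9% of all tested genes), with a median log2 fold change of -0.06. Dscam, which encodes a further netrin receptor, fell to 102 ± 5.02 CPM (SD, n = 4) in KAT7 mutant against 149 ± 8.16 CPM (SD, n = 3) in wild type, by 0.54 ± 0.06 (SE) on the log2 scale (edgeR adjusted p = 4.05e-07). Its relative Dscaml1 rose to 174 ± 10.9 CPM in KAT7 mutant against 106 ± 4.68 CPM in wild type, by 0.71 ± 0.06 (edgeR adjusted p = 1.59e-08). Further falls were in Bmpr1b, a BMP receptor (-0.62), Flrt1, of a family of Unc5 ligands (-0.33), and Rgmb, a neogenin ligand (-0.31). Further rises were in Adgrl3, a latrophilin that binds Flrt proteins (0.31), Sdc3, a heparan sulfate proteoglycan (0.21), and Lrrc4b, of the netrin-G ligand family (0.14). Lrrc4b had an edgeR adjusted p of 0.0475 and was called in 7 of 15 alternatives.

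Of 56 listed signalling genes near the receptors, 55 were tested, 13 rose, 6 fell and 36 were not called (34.5%, beside 28.9% of all tested genes), with a median log2 fold change of 0.00. The rises included Chn2, a Rac-inactivating chimaerin (0.78 ± 0.07 SE), Ngef, which encodes the Eph effector ephexin-1 (0.78 ± 0.27), Sipa1l1 (0.46 ± 0.06) and Rasa1, a Ras-inactivating protein (0.37 ± 0.05). Chn2 had 59.0 ± 2.85 CPM (SD, n = 4) in KAT7 mutant and 34.3 ± 2.65 CPM (SD, n = 3) in wild type. Ngef was low, at 6.15 ± 2.40 CPM in KAT7 mutant and 3.59 ± 0.767 CPM in wild type, and was called in 8 of 15 alternatives. The falls included Arhgef15, of the ephexin family (-0.88 ± 0.19), the actin regulator gene Cap2 (-0.40 ± 0.10), the ubiquitin ligase gene Nedd4 (-0.39 ± 0.06) and the kinase gene Pak1 (-0.28 ± 0.05).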

How the data were processed

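PolyA RNA-seq libraries of cortical neurons, 4 KAT7 mutant and 3 wild type, were analysed from the deposited raw counts per gene. Per the submitters' processing notes, the authors counted with featureCounts and named mm9; aligner, annotation release and strand use were not given in the sources used here, and overlapping and antisense genes cannot be separated. Each column name carries one sample's description. Symbols came from an NCBI table of GRCm38.p6 by Entrez identifier (24176 of 26286 matched), used for names and gene order; promoter windows are from RefSeq, same build, and spans and exon overlaps from GENCODE M21, with a span for 93.3% of tested genes.

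Members and gene lists were chosen with earlier results of these data known. Per-library values were given for called genes with an absolute log2 fold change of at least 0.5 and 1 CPM in a genotype, and, chosen after their values were seen, for Neo1, Dcc, Slit1, Slit2, Unc5d, Robo1 and Efnb2. Up to 4 genes per direction were named from each list of other pathway genes.

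Low counts were filtered with filterByExpr (minimum count 10), leaving 13681 genes, and scaled by TMM. edgeR version 4.0.16 in R version 4.3.3 compared genotypes by the quasi-likelihood F test, 2-sided, with Benjamini-Hochberg adjustment over all tested genes and calls under 0.05. The SE is the absolute log2 fold change divided by the root of F. The fit was tested on simulated counts. CPM and RPKM were computed from the deposited counts with TMM-scaled library sizes and, for RPKM, the deposited length. Replicates were distinct libraries (chi-square per gene between pairs of one genotype, 2.06 to 3.67). Alternatives were RLE, upper-quartile or no factors, no count filter or 1 CPM in 3 libraries, DESeq2 version 1.42.0, limma-voom (limma version 3.58.1), the replicate number as a block, and each library left out.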

Additional observations from a re-analysis of the deposited data

Results flagged for a closer look

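In 6 of the 61 sets of 4 KAT7 mutant values examined, the lowest or highest library stood apart from the others by Dixon's criterion, which chance meets in about 1 of 20 sets. Slit2 was at 38.6 CPM in KAT7 mutant replicate 4, with the others at 25.9 to 28.0. The summed Unc5 receptors were at 38.7 RPKM in the same library, with the others at 33.6 to 34.4. Efna5 was at 13.7 CPM there, with the others at 16.3 to 16.9. Epha7 was at 79.6 CPM in KAT7 mutant replicate 1, with the others at 95.7 to 99.0, and every one of these lay below the wild type libraries. Ntn1 was at 4.41 CPM in KAT7 mutant replicate 2, with the others at 5.67 to 5.84, all above the wild type libraries. The summed endothelial markers were at 11.1 CPM in KAT7 mutant replicate 3, with the others at 13.9 to 14.2.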

How the results depend on the processing

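Of the 19 called guidance genes, 16 kept their call and direction under all 15 alternatives, and the 3 that did not were Efna2, Slit2 and Unc5c. Over the alternatives 5 to 8 guidance genes rose and 11 to 14 fell. The median log2 fold change of the tested guidance genes was -0.1385 to -0.05201 with 1 library left out. Among uncalled genes with 1 library left out, the log2 fold change was -0.07251 to 0.03262 for Ephb2, -0.02646 to 0.1012 for Robo1 and -0.2227 to 0.05112 for Unc5b. Deviations of same-numbered libraries correlated at 0.0181, 0.0118 and -0.0292, so the replicate numbers showed no pairing. This check cannot show whether libraries shared a litter weakly or under other numbers. With the replicate number as a block, KAT7 mutant replicate 4 has no partner and adds nothing to the contrast. In that fit 6 guidance genes rose and 13 fell. Slit2 (0.24, edgeR adjusted p = 0.0918) and Unc5c (-0.61, 0.119) were not called in it, while Efnb2 (0.14, 0.0445) and Epha4 (-0.19, 0.0185) were. Of all genes, 1460 rose and 1943 fell with the block. Over all tested genes 1793 rose and 2163 fell in the main fit, and DESeq2 called 1362 and 1715. With 41 to 183 counts over a genotype, the sizes for Epha6, Ntn1, Unc5c and Ntn4 are less precise than those of abundant genes.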
